A study of Mus musculus with 10 samples.

Results

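The genes described here are 10 genes of the ATF4 response and of serine synthesis, namely Atf4, Ddit3, Trib3, Chac1, Asns, Phgdh, Psat1, Psph, Shmt2 and Mthfd2. They were chosen by name, and each symbol was matched to 1 Ensembl identifier of the deposited count table, so that 10 of its 48795 genes are the members. RNA-seq had been carried out on cultured neural stem and progenitor cells that came from the subependymal zone of 10 week old mice. The question was how gene expression changes when these cells leave the cell cycle and begin to differentiate, and whether that change depends on p27, the cell cycle inhibitor encoded by Cdkn1b. The proliferating groups (PRO) were neurospheres after 3 days in vitro with 20 ng/ml EGF and 10 ng/ml FGF. The differentiating groups (DIFF) had been plated on Matrigel for 2 days with FGF and then kept for 1 day (24 h) without mitogens and with 2% fetal bovine serum. Mitogen loss, serum and attachment therefore changed together between PRO and DIFF, and their parts cannot be told apart.

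Wild-type (WT) cells gave 3 libraries per stage, and 2 libraries per stage were labelled p27KO, a line with deletion of Cdkn1b. The 3 WT PRO libraries held 19190068, 25069860 and 21687332 counts, and the 3 WT DIFF libraries 19649261, 24128072 and 25291674. The 2 PRO libraries labelled p27KO held 24205236 and 20332078 counts, and the 2 DIFF libraries 25223929 and 22237950. Levels are given as CPM, the count of a gene scaled to a library of 1000000 counts, in the order of the replicate numbers. The design text calls the replicates biological, without saying whether each was a separate mouse.

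The labels of the p27KO libraries were checked first. Title and genotype field of these 4 samples read p27KO, but their free-text description names WT cells. Cdkn1b was at 114 and 90.7 CPM in the PRO and at 140 and 137 CPM in the DIFF libraries labelled p27KO. The WT libraries held 103, 105 and 112 CPM in PRO and 207, 205 and 209 CPM in DIFF, so that counts of the targeted gene were not lost. Between the labels, Cdkn1b was lower in DIFF by 0.56 on the log2 scale (SE 0.0938, adjusted p = 0.012, edgeR quasi-likelihood, Benjamini-Hochberg), a call lost without either of the 2 DIFF libraries labelled p27KO. Its log2 fold change stayed between -0.59 and -0.54 over the 17 alternative fits. In PRO its log2 fold change was -0.03 (SE 0.0931). Counts per gene do not show which exons the reads came from. Xist, expressed from the inactive X chromosome of female cells, was between 2258 and 3595 CPM in the libraries labelled p27KO and at most 2.57 CPM in WT. The 4 Y-linked genes Ddx3y, Eif2s3y, Kdm5d and Uty summed to at most 0.585 CPM in the former and to at least 189 CPM in the latter. Genotype and sex thus cannot be told apart, and every direction between genotypes rests on the labels.

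ATF4 is a transcription factor of the integrated stress response. Its mRNA is present in unstressed cells but is translated efficiently mainly when eIF2alpha is phosphorylated, so that mRNA levels do not measure ATF4 protein. Its targets include enzymes that make asparagine, serine and glycine, and mitochondrial folate enzymes that load and process carbon units from serine, which growing cells need for nucleotides. Prolonged activation adds Ddit3 (CHOP), the pseudokinase Trib3 and the glutathione-degrading enzyme Chac1, while in the brain Phgdh is known as an astrocyte and radial glia enzyme that supplies serine to neurons.

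In both genotypes the members fell into 3 patterns between PRO and DIFF. Atf4, Asns and the mitochondrial folate enzymes Shmt2 and Mthfd2 fell, Phgdh rose, and Psat1, Psph and Ddit3 did not pass the test. The lowest 2 members, Trib3 and Chac1, were under 1 CPM in 7 of the 10 libraries each and were discarded by the filter, which removed any gene that was under 1 CPM in 4 or more libraries. In WT, 4 of the 8 members tested were DOWN and 1 was UP at the 0.05 threshold (adjusted p, edgeR quasi-likelihood, Benjamini-Hochberg over 12859 genes). Over all genes tested, 33.9% were DOWN and 33.5% were UP in WT. In the libraries labelled p27KO, again 4 members were DOWN and 1 was UP, where 30.2% of all genes were DOWN and 27.5% UP. With so much of the transcriptome changed, the counts say little about the members, and their direction and size are what follows. In bulk cultures, fewer cells of a type and less RNA of a gene per cell cannot be told apart.

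**Figure D1:**
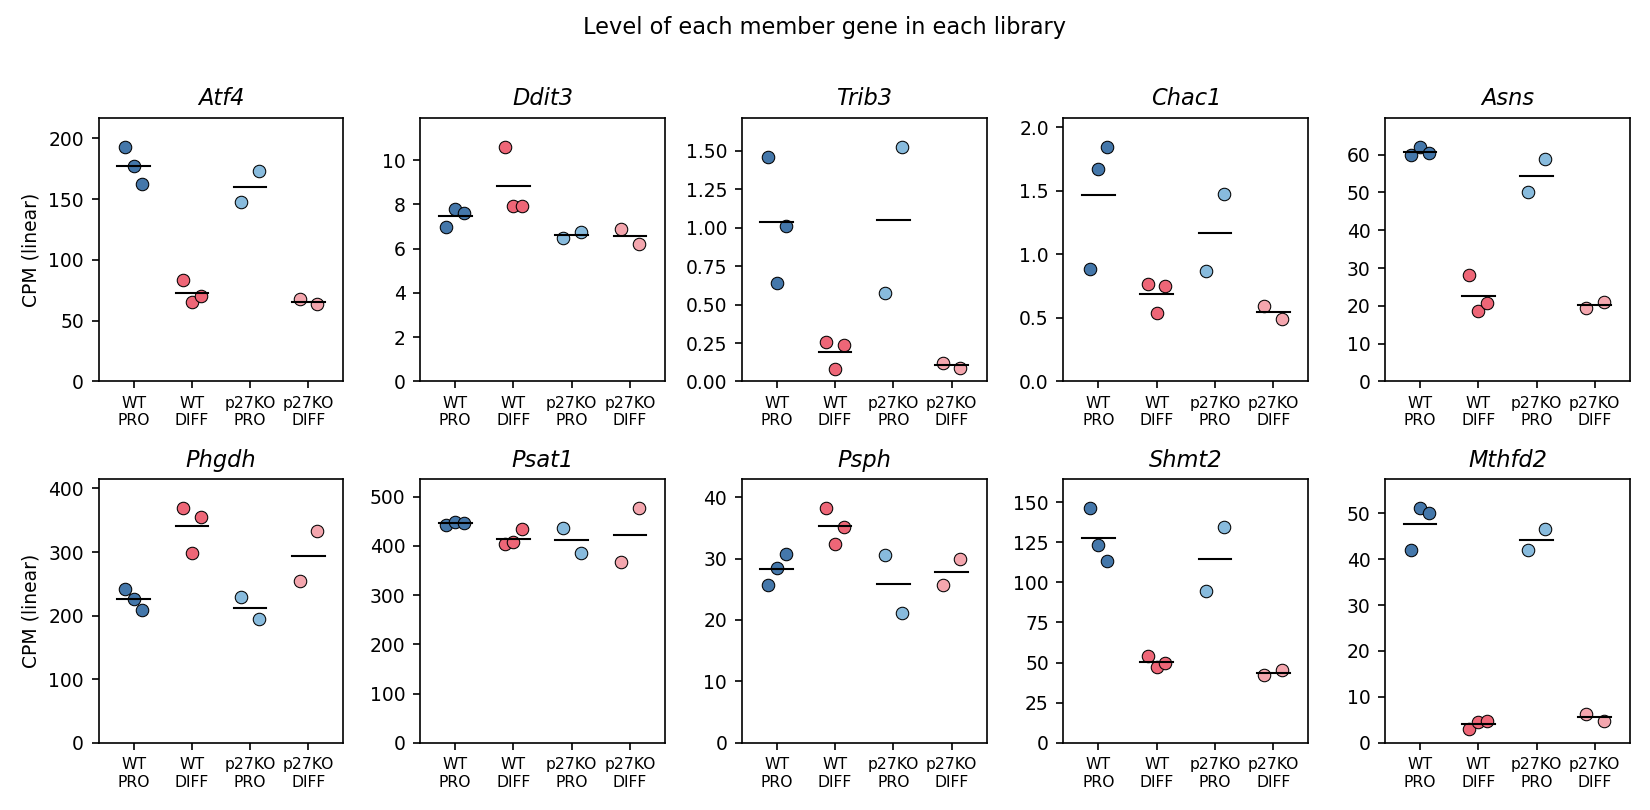
CPM of each of the 10 genes (vertical axis, linear, starting at 0, with its own scale per gene) in each library (points) by genotype label and stage, with the group mean as a bar (n = 3 for WT, n = 2 for p27KO). Atf4, Asns, Shmt2 and Mthfd2 were lower in every DIFF library than in every PRO library, and Phgdh was higher.

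Atf4 (ENSMUSG00000042406, GRCm38 chromosome 15, 80255184 to 80257541, plus strand) encodes the central factor of the response. Its level was 193, 177 and 163 CPM in WT PRO and 83.7, 65.2 and 70.4 CPM in WT DIFF. With the p27KO label, PRO gave 147 and 173 CPM and DIFF gave 67.4 and 63.6 CPM. All 5 DIFF libraries were thus below all 5 PRO libraries, and within a stage the genotypes overlapped. In WT, Atf4 fell by 1.29 on the log2 scale (SE 0.112, adjusted p = 5.73e-06, edgeR quasi-likelihood, Benjamini-Hochberg). It fell by 1.32 in the libraries labelled p27KO (SE 0.137, adjusted p = 3.8e-05 from the same edgeR quasi-likelihood test, Benjamini-Hochberg). The Atf4 mRNA was not lost in DIFF, where its mean per kb of exon was still 31.0 ± 4.03 CPM per kb (SD, n = 3) in WT, against 75.3 ± 6.37 CPM per kb (SD, n = 3) in PRO.

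Ddit3 (ENSMUSG00000025408, chromosome 10, 127290774 to 127296288, plus strand) encodes CHOP, a bZIP factor induced late in the stress response. It was low and nearly flat, at 6.98, 7.78 and 7.61 CPM in WT PRO and 10.6, 7.92 and 7.95 CPM in WT DIFF. The libraries labelled p27KO held 6.49 and 6.74 CPM in PRO and 6.90 and 6.21 CPM in DIFF. The 3 WT DIFF libraries were above the 3 WT PRO libraries, although 2 of them by little, and the log2 fold change of 0.23 (SE 0.149) did not pass (adjusted p = 0.199, edgeR quasi-likelihood, Benjamini-Hochberg). In the libraries labelled p27KO the stages overlapped, with a log2 fold change of -0.04 (SE 0.184). Ddit3 shares 68 of its 1713 exon bases with the methionyl-tRNA synthetase gene Mars1 on the other strand, which was at a mean of 69.7 CPM against 7.52 CPM for Ddit3. Whether counting used the strand is not given in the sources used here, so that how reads of this stretch were divided between these genes is not known.

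Trib3 (ENSMUSG00000032715, chromosome 2, 152337422 to 152344032, minus strand) encodes a pseudokinase that acts back on ATF4. It had between 16 and 28 counts in the WT PRO libraries and between 2 and 6 in the WT DIFF libraries. In CPM these were 1.46, 0.638 and 1.01 in PRO and 0.254, 0.0829 and 0.237 in DIFF. The libraries labelled p27KO held 0.578 and 1.52 CPM in PRO and 0.119 and 0.0899 CPM in DIFF, the latter from 3 and 2 counts. All DIFF libraries were below all PRO libraries, near the limit of detection. Without the filter, Trib3 fell by 2.50 in WT on the log2 scale (SE 0.566, adjusted p = 0.000936, edgeR quasi-likelihood, Benjamini-Hochberg) and, in the libraries labelled p27KO, it fell by 3.34 (SE 0.746, adjusted p = 0.00114, edgeR quasi-likelihood, Benjamini-Hochberg).

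Chac1 (ENSMUSG00000027313, chromosome 2, 119351229 to 119354381, plus strand), whose product cleaves glutathione, was as low. WT PRO libraries held 0.886, 1.68 and 1.84 CPM, and WT DIFF libraries 0.763, 0.539 and 0.751 CPM. Those labelled p27KO gave 0.868 and 1.48 CPM in PRO and 0.595 and 0.495 CPM in DIFF. The stages did not overlap in either genotype, but the lowest PRO library of WT, replicate 1, was close to the highest DIFF library. Without the filter, Chac1 fell by 1.20 in WT on the log2 scale (SE 0.415, adjusted p = 0.0262, edgeR quasi-likelihood, Benjamini-Hochberg). This call was lost without WT DIFF replicate 2 (log2 fold change -1.05, adjusted p = 0.090), without WT PRO replicate 2 (-1.10, adjusted p = 0.0812) or without WT PRO replicate 3 (-1.03, adjusted p = 0.102), all from edgeR quasi-likelihood, Benjamini-Hochberg. The log2 fold change of -1.18 (SE 0.521) in the libraries labelled p27KO did not pass, with an adjusted p = 0.101 (edgeR quasi-likelihood, Benjamini-Hochberg).

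Asns (ENSMUSG00000029752, chromosome 6, 7675169 to 7693254, minus strand) encodes asparagine synthetase, a standard readout of ATF4 activity. It was at 59.9, 62.0 and 60.4 CPM in WT PRO and at 28.2, 18.5 and 20.8 CPM in WT DIFF. For the p27KO label the values were 50.2 and 58.7 CPM in PRO and 19.5 and 21.0 CPM in DIFF. The 5 DIFF libraries lay well below the 5 PRO libraries, and the 2 PRO libraries labelled p27KO were just below the 3 of WT. In WT, Asns fell by 1.45 on the log2 scale (SE 0.141, adjusted p = 1.25e-05, edgeR quasi-likelihood, Benjamini-Hochberg). It also fell by 1.45 in the libraries labelled p27KO (SE 0.173, adjusted p = 8.53e-05, edgeR quasi-likelihood, Benjamini-Hochberg).

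The 3 enzymes that make serine from a glycolytic intermediate did not follow Asns. Phgdh (ENSMUSG00000053398, chromosome 3, 98313170 to 98339990, minus strand) encodes the first of them, phosphoglycerate dehydrogenase. WT PRO libraries held 242, 227 and 209 CPM of Phgdh, and WT DIFF libraries 369, 299 and 355 CPM. PRO libraries labelled p27KO held 229 and 194 CPM and DIFF libraries 255 and 333 CPM. Every DIFF library was above every PRO library, with the smallest gap between the PRO library of WT replicate 1 and the DIFF library of p27KO replicate 1. In WT, Phgdh rose by 0.58 on the log2 scale (SE 0.117, adjusted p = 0.00151, edgeR quasi-likelihood, Benjamini-Hochberg). It rose by 0.45 in the libraries labelled p27KO (SE 0.143, adjusted p = 0.0221, edgeR quasi-likelihood, Benjamini-Hochberg). That second call rested on single libraries: without p27KO DIFF replicate 2 the log2 fold change was 0.25 (adjusted p = 0.205) and without p27KO PRO replicate 2 it was 0.35 (adjusted p = 0.124), by edgeR quasi-likelihood, Benjamini-Hochberg.

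Psat1 (ENSMUSG00000024640, chromosome 19, 15904678 to 15947337, minus strand), the aminotransferase of the second step, had the most CPM of the 10 genes. It was at 443, 449 and 448 CPM in WT PRO and at 403, 407 and 434 CPM in WT DIFF. The libraries labelled p27KO held 437 and 387 CPM in PRO and 368 and 476 CPM in DIFF. The WT DIFF libraries were slightly below the WT PRO libraries, but the log2 fold change of -0.12 (SE 0.0945) did not pass (adjusted p = 0.298, edgeR quasi-likelihood, Benjamini-Hochberg). Its 95% interval, -0.33 to 0.10, leaves out a change of the size seen in Atf4. In the libraries labelled p27KO the stages overlapped, and the log2 fold change was 0.01, with an interval of -0.25 to 0.27.

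Psph (ENSMUSG00000029446, chromosome 5, 129765558 to 129787449, minus strand) encodes the phosphatase of the last step. Its level was 25.7, 28.5 and 30.8 CPM in WT PRO and 38.2, 32.5 and 35.1 CPM in WT DIFF. The WT DIFF libraries were above the WT PRO libraries, yet the log2 fold change of 0.30 (SE 0.134) missed the threshold (adjusted p = 0.0701, edgeR quasi-likelihood, Benjamini-Hochberg). It passed when only the 6 WT libraries were fitted (adjusted p = 0.0305) and without p27KO PRO replicate 1 (0.0261) or replicate 2 (0.0259), in the edgeR quasi-likelihood test, Benjamini-Hochberg. The libraries labelled p27KO gave 30.5 and 21.1 CPM in PRO and 25.8 and 29.9 CPM in DIFF, with the stages overlapping. Psph shares 452 of its 4329 exon bases with Cct6a, a chaperonin subunit gene on the other strand with a mean of 279 CPM, so that part of the Psph counts could belong to Cct6a, whose log2 fold change in WT was -1.18.

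Per kb of exon, Psat1 and Phgdh were the highest of the members and of like size. In WT PRO the means were 105 ± 0.773 CPM per kb (SD, n = 3) for Psat1 and 90.9 ± 6.53 CPM per kb (SD, n = 3) for Phgdh. In WT DIFF the order was turned, with 97.5 ± 3.85 CPM per kb (SD, n = 3) for Psat1 and 137 ± 14.9 CPM per kb (SD, n = 3) for Phgdh. Psph was far below both, at 6.55 ± 0.585 CPM per kb (SD, n = 3) in WT PRO and 8.14 ± 0.661 CPM per kb (SD, n = 3) in WT DIFF.

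Both mitochondrial folate enzymes among the members fell. Shmt2 (ENSMUSG00000025403, chromosome 10, 127517123 to 127522444, minus strand) encodes the mitochondrial hydroxymethyltransferase that splits serine into glycine and a folate-bound carbon unit. Its level was 146, 123 and 113 CPM in WT PRO and 54.1, 47.3 and 50.0 CPM in WT DIFF. Libraries labelled p27KO held 94.5 and 135 CPM in PRO and 42.1 and 45.2 CPM in DIFF. No DIFF library reached any PRO library. In WT, Shmt2 fell by 1.35 on the log2 scale (SE 0.144, adjusted p = 2.36e-05, edgeR quasi-likelihood, Benjamini-Hochberg) and, in the libraries labelled p27KO, it fell by 1.42 (SE 0.177, adjusted p = 0.000114, edgeR quasi-likelihood, Benjamini-Hochberg).

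Mthfd2 (ENSMUSG00000005667, chromosome 6, 83305691 to 83325908, minus strand), the next enzyme of the mitochondrial folate route and known for its expression in embryonic and dividing cells, changed most among the 8 members tested. WT PRO libraries held 41.9, 51.1 and 50.0 CPM, and WT DIFF libraries 2.90, 4.48 and 4.82 CPM. Under the p27KO label there were 41.9 and 46.5 CPM in PRO and 6.30 and 4.72 CPM in DIFF. The gap between stages was far wider than the spread within any group. In WT, Mthfd2 fell by 3.55 on the log2 scale (SE 0.197, adjusted p = 3.72e-07, edgeR quasi-likelihood, Benjamini-Hochberg). It fell by 3.02 in the libraries labelled p27KO (SE 0.234, adjusted p = 7.47e-06, edgeR quasi-likelihood, Benjamini-Hochberg). Asns, Shmt2 and Mthfd2, all known ATF4 targets, thus fell beside Atf4, while Phgdh, also known as an ATF4 target, rose, and Psat1, another, did not pass the test.

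None of the 8 members tested passed in any comparison between the genotypes. For the difference between the 2 stage changes, 0 members were called by edgeR's quasi-likelihood test, 0 had an unadjusted p under 0.05, and DESeq2 called 0, where 0.389% of all genes were called by edgeR. Of all 12859 genes, 554 had an unadjusted p under 0.05 in edgeR for this difference. Mthfd2 had the largest difference, 0.53 on the log2 scale (SE 0.290, unadjusted p = 0.102 in edgeR), with a 95% interval from -0.12 to 1.17. For Atf4 this difference was -0.03 with an interval from -0.42 to 0.37, and for Asns -0.01 with an interval from -0.50 to 0.48. These intervals bound the difference but do not show that the genotypes were alike.

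In PRO, 0 members were called between the genotypes by edgeR or by DESeq2. In edgeR, 0 members had an unadjusted p under 0.05, where 603 of all 12859 genes did. Over all genes, edgeR called 2 (0.0156%), or 1 with the replicate number as a block, and DESeq2 called 40. The 8 log2 fold changes of the libraries labelled p27KO against WT lay between -0.15 and -0.07. In DIFF, again 0 members were called by edgeR or DESeq2, where edgeR called 2.04% of all genes. Of all 12859 genes tested, 1901 had an unadjusted p under 0.05 in edgeR, and among the members 1 did. This was Ddit3, with a log2 fold change of -0.41 (SE 0.168, unadjusted p = 0.0355, adjusted p = 0.292, edgeR quasi-likelihood, Benjamini-Hochberg), lower in both libraries labelled p27KO than in the 3 of WT. The fitted values of the other members tested lay between -0.32 for Psph and 0.45 for Mthfd2.

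**Figure D2:**
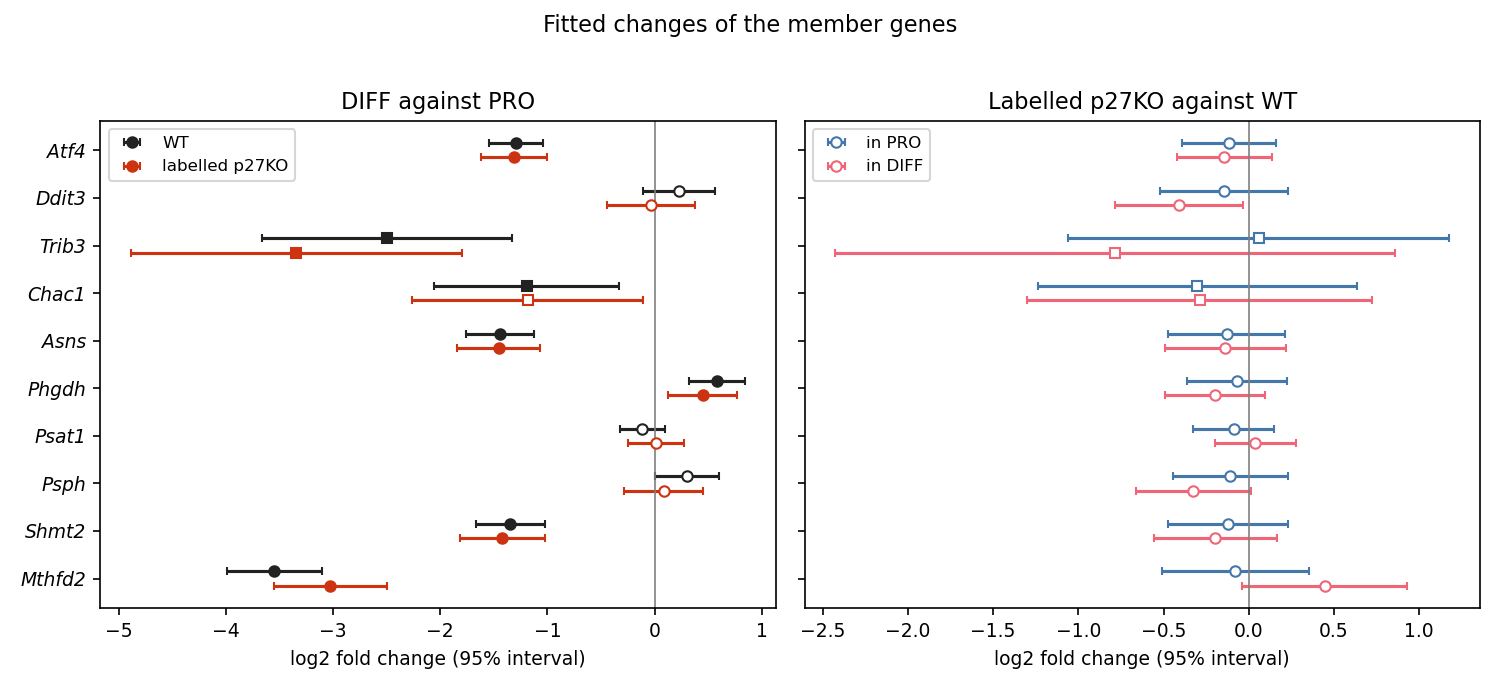
Log2 fold change (horizontal axis) of each member with its 95% interval, between stages in each genotype (left) and between genotype labels in each stage (right). Filled symbols had an adjusted p under 0.05 in edgeR, and squares mark Trib3 and Chac1, fitted without the filter. Between the genotypes no symbol is filled.

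The upstream genes of the response were examined in the same fit. The list held 13 genes, namely those for eIF2alpha kinases, phosphatase subunits, eIF2alpha and eIF2B, and Gcn1. In WT, 8 of them fell, 2 rose and 3 did not pass, with a median log2 fold change of -0.37 beside 0.00 for all genes tested. With the p27KO label, 8 fell, 1 rose and 4 did not pass, with a median of -0.37 beside -0.03. Eif2s1, encoding eIF2alpha itself, fell by 1.48 in WT (SE 0.114), Eif2ak3, which encodes the ER stress kinase PERK, fell by 1.38 (SE 0.0799), and Eif2b3, a subunit of the exchange factor eIF2B, fell by 1.26 (SE 0.110). Eif2ak2, which encodes the double-stranded RNA kinase PKR, rose by 0.88 (SE 0.0960). Phosphorylation was not measured.

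Of 8 bZIP partners and related factors, 5 were tested, the other 3 (Atf3, Cebpb and Nupr1) being too low for the filter. In WT, 2 fell, 0 rose and 3 did not pass, and in the libraries labelled p27KO 1 fell, 0 rose and 4 did not pass, with medians of -0.09 and -0.03. Of those discarded, Atf3 and Nupr1 were lower in every DIFF library than in every PRO library of the same genotype. Their WT means were 1.52 and 1.61 CPM in PRO and 0.247 and 0.369 CPM in DIFF. They were not tested in the fit reported, so that the filter may have kept falls out of these counts. Over the alternative fits, 1 to 4 fell in each genotype. Cebpg, whose product pairs with ATF4, fell by 0.38 in WT (SE 0.120). Its call was absent in 3 of the 17 alternative fits.

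Among 18 other known ATF4 targets, rises and falls were mixed. Of the 16 tested, 7 rose, 7 fell and 2 did not pass in WT, with a median of -0.02 on the log2 scale. Under the p27KO label 4 rose, 6 fell and 6 did not pass, with a median of -0.15. Gdf15, which the filter discarded, was lower in every DIFF library than in every PRO library of the same genotype. It was not tested in the fit reported, and its WT means were 2.96 CPM in PRO and 0.188 CPM in DIFF. Stc2, a secreted stress glycoprotein, fell by 2.04 in WT (SE 0.152), and Aldh18a1, which makes the proline precursor, fell by 1.20 (SE 0.0977). Map1lc3b, which encodes the autophagosome protein LC3B, rose by 0.92 (SE 0.0699) and Ddit4, an inhibitor of mTORC1, rose by 0.86 (SE 0.189).

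Amino acid transporters were mixed as well. Of 10 tested out of 11, 4 fell, 3 rose and 3 did not pass in WT (median -0.29), and 6 fell, 0 rose and 4 did not pass in the libraries labelled p27KO (median -0.63). The arginine and lysine carrier Slc7a1 fell by 3.24 in WT (SE 0.198). The cystine carrier gene Slc7a11 rose by 1.22 (SE 0.362), the glycine carrier gene Slc6a9 rose by 0.94 (SE 0.321) and the glutamine carrier gene Slc38a1 rose by 0.78 (SE 0.258). These 3 calls were unstable, being absent in 2, 4 and 3 of the 17 alternative fits, and all 3 were absent without the filter. None of the 3 passed in the libraries labelled p27KO, and none of them passed the test of the difference between the stage changes.

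The aminoacyl-tRNA synthetases fell almost together. Of 12 known as ATF4 targets, 12 fell in WT and 11 in the libraries labelled p27KO, where 1 did not pass, with medians of -0.88 and -0.81. Gars1, for glycine, fell by 1.65 in WT (SE 0.0700), Mars1, for methionine, fell by 1.46 (SE 0.0903), Iars1, for isoleucine, fell by 1.37 (SE 0.0728) and Cars1, for cysteine, fell by 1.27 (SE 0.114). Of 8 synthetases not usually given as ATF4 targets, 6 fell, 1 rose and 1 did not pass in each genotype, with medians of -1.01 and -0.94. Among these, Vars1 fell by 2.20 in WT (SE 0.130), Farsb fell by 1.37 (SE 0.103), Rars1 fell by 1.19 (SE 0.0897) and Kars1 fell by 1.12 (SE 0.0795). Synthetases outside the ATF4 list thus had falls of the same size as those on it.

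The remaining genes of the folate cycle moved in the direction of Shmt2 and Mthfd2. Of 16, 12 fell, 1 rose and 3 did not pass in each genotype, with medians of -0.89 in WT and -0.79 in the libraries labelled p27KO. Mthfd1l, the formate-releasing enzyme that acts after Mthfd2 in mitochondria, fell by 3.95 in WT (SE 0.132). Shmt1, the cytosolic counterpart of Shmt2, fell by 3.71 (SE 0.143) and thymidylate synthase (Tyms) fell by 2.70 (SE 0.0898). Between the genotypes in DIFF, Tyms was higher in the libraries labelled p27KO by 0.56 (adjusted p = 0.0149, edgeR quasi-likelihood, Benjamini-Hochberg), a call present in 13 of 17 alternative fits. Its stage changes did not pass the test of the difference between genotypes.

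Genes that use serine or glycine did not fall as a group. Of 7 tested out of 9, 2 rose, 2 fell and 3 did not pass in each genotype, with medians of 0.03 in both. The discarded genes Sds and Sdsl were higher in every DIFF library than in every PRO library of the same genotype. Neither was tested in the fit reported, and both were low. WT means were 0.161 CPM in PRO and 0.348 CPM in DIFF for Sds, and 0.276 and 1.71 CPM for Sdsl. How many of all genes separate in this way was not counted. Serine racemase (Srr), which makes D-serine, rose by 1.26 in WT (SE 0.0929) and Amt of the glycine cleavage system rose by 0.67 (SE 0.127). The sphingolipid enzyme genes Sptlc2 and Sptlc1, whose products condense serine with a fatty acid, fell by 0.51 (SE 0.0984) and fell by 0.25 (SE 0.0830), the latter call being absent in 4 of the 17 alternative fits. Of 7 glutathione genes, 2 rose, 1 fell and 4 did not pass in each genotype, with medians of 0.19 in WT and -0.07 in the libraries labelled p27KO. Gclc and Gclm, the subunits of the first enzyme of glutathione synthesis, rose by 0.82 (SE 0.187) and 0.49 (SE 0.115) in WT. Glutathione reductase (Gsr) fell by 2.01 (SE 0.128).

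Neither ER nor mitochondrial stress genes rose as a group. Of 19 ER chaperones and targets of XBP1 or ATF6, 11 fell, 5 rose and 3 did not pass in each genotype, with medians of -0.52 in WT and -0.37 in the libraries labelled p27KO. The secreted ER protein gene Manf fell by 1.41 in WT (SE 0.0932), the factor Xbp1 fell by 1.10 (SE 0.0944) and Edem1, of ER-associated degradation, fell by 0.98 (SE 0.105). Dnajb9, a co-chaperone of BiP, rose by 0.91 (SE 0.0841). Of 8 mitochondrial stress genes, 4 fell, 1 rose and 3 did not pass in WT (median -0.39), and 5 fell, 0 rose and 3 did not pass in the libraries labelled p27KO (median -0.42). The chaperonin pair Hspd1 and Hspe1 fell by 1.44 (SE 0.139) and fell by 1.12 (SE 0.169), the mitochondrial Hsp70 gene Hspa9 fell by 0.76 (SE 0.122) and the protease gene Clpp fell by 0.68 (SE 0.137).

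**Figure D3:**
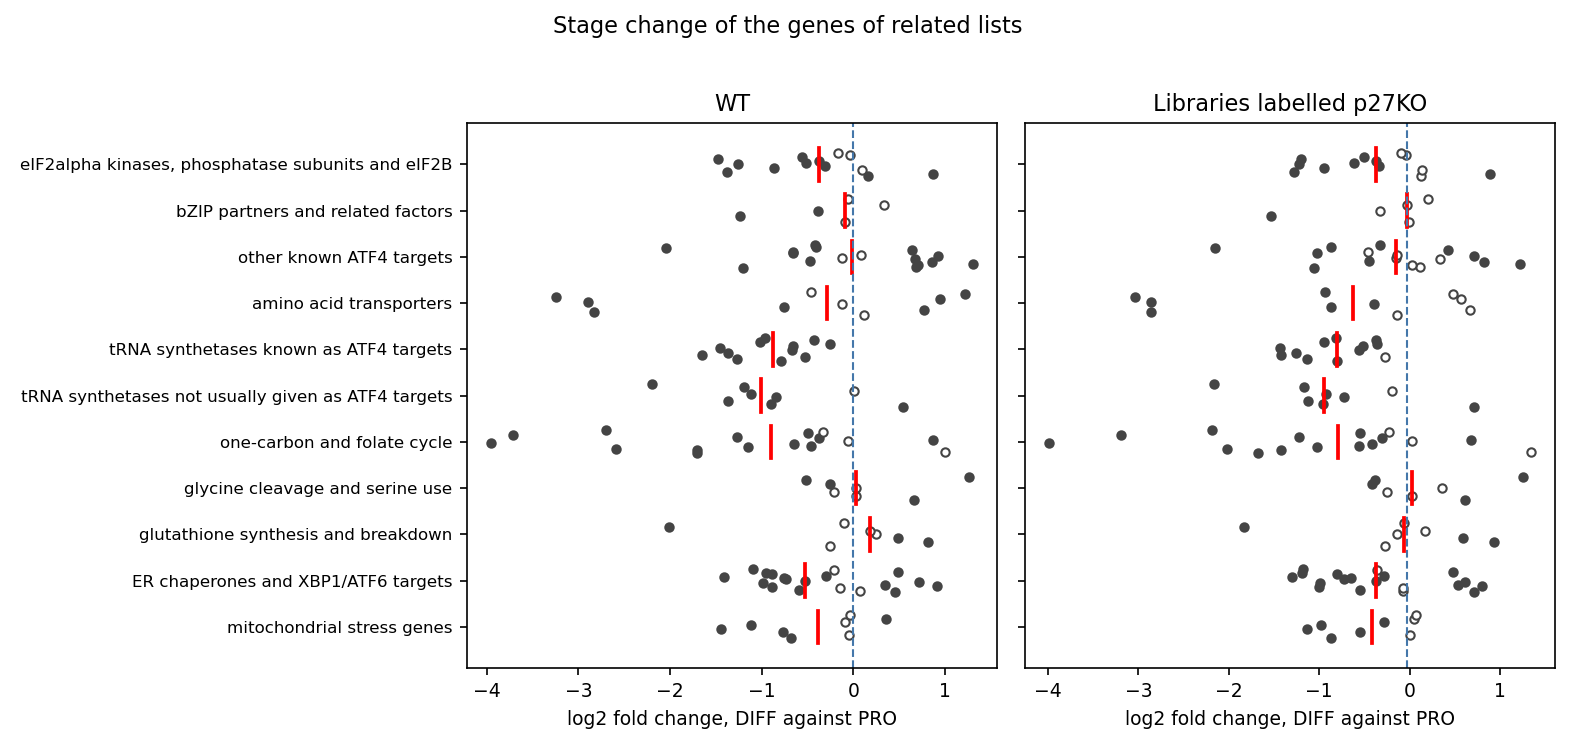
Log2 fold change from PRO to DIFF (horizontal axis) of each tested gene of 11 lists in WT (left) and in the libraries labelled p27KO (right). Filled points had an adjusted p under 0.05 in edgeR, the solid mark is the median of the list and the dashed line the median of all 12859 genes tested. The 12 synthetases known as ATF4 targets all lie left of 0 in WT.

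Markers of cell types and of division changed with the stage, beside the members. The 6 markers of dividing cells summed to 2388, 2362 and 2572 CPM in WT PRO and to 312, 189 and 294 CPM in WT DIFF. In the libraries labelled p27KO they summed to 2763 and 2487 CPM in PRO and to 822 and 720 CPM in DIFF, with Mki67 as the most abundant. All 6 fell with the stage in both genotypes, and in DIFF 5 passed as higher in the libraries labelled p27KO. All 5 of these calls were lost when only the groups compared were fitted, though over the 17 alternative fits the values stayed between 1.61 and 1.97 for Mki67 and between 1.61 and 2.06 for Top2a. Calls were present in 16 of the 17 fits for Mki67 and Top2a, 15 for Cdk1 and Mcm2 and 7 for Ccnb1. The 9 astrocyte markers were led by Slc1a3, with Gjb6 under 1 CPM in every library. They summed to 1456 to 1699 CPM in the 5 PRO and 4583 to 5478 CPM in the 5 DIFF libraries, as Phgdh rose. Of the 8 tested, 7 rose in each genotype and 1, S100b, did not pass. The log2 fold change of S100b was -0.64 in WT and -1.15 in the libraries labelled p27KO. The 6 neural progenitor markers, led by Vim, summed to between 6282 and 7115 CPM in PRO and between 4857 and 6297 CPM in DIFF. Single genes of this list went opposite ways: in WT, Nes fell by 3.16 (SE 0.179) and Vim fell by 0.60 (SE 0.0843), while Msi1 rose by 2.46 (SE 0.200) and Prom1 rose by 1.49 (SE 0.186). The part of cell composition and of division in the changes of the members was not tested.

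The 7 neuronal markers, led by Map2 and with Stmn2 under 1 CPM in every library, summed to between 1230 and 1852 CPM in PRO and between 1481 and 2136 CPM in DIFF. Of the 6 tested, 2 rose and 4 did not pass in each genotype. Map2 made up most of this sum and did not pass, whereas Dcx rose by 4.61 (SE 0.898) and Tubb3 rose by 1.29 (SE 0.375) in WT. Syt1, Rbfox3 and Snap25 did not pass, with log2 fold changes of -0.32, 0.51 and 0.79 in WT. The 7 oligodendroglial markers, led by Cnp and with Sox10 and Mog under 1 CPM in every library, summed to between 139 and 286 CPM over the 10 libraries. The 7 microglial markers summed to at most 0.497 CPM and the 5 endothelial markers to at most 1.72 CPM in any library. The 6 mural or fibroblast markers, led by Acta2 and with Rgs5, Dcn and Lum under 1 CPM in every library, summed to at most 3.44 CPM in PRO and to between 30.1 and 99.2 CPM in DIFF. The 4 ependymal markers, mainly Foxj1 and with Ccdc153 and Tmem212 under 1 CPM in every library, summed to at most 21.6 CPM in PRO and to between 86.6 and 105 CPM in DIFF.

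The genes most like a member were sought by the smallest root mean square difference of log2 CPM over the 10 libraries, each gene being centred on its own mean after 0.5 CPM had been added, which shrinks the changes of a low gene such as Chac1. Among 9773 other genes whose mean reached 10 CPM, the 5 most like Atf4 were Pusl1 (difference 0.0496), Ebp (0.0708), Tomm40 (0.0734), Lsm4 (0.0792) and Noc4l (0.0798). Shmt2 stood at place 16 in this order (0.0968) and Asns at place 39 (0.116), but Mthfd2, which fell more, at place 7966 (1.02). The 5 most like Phgdh were Parp6 (0.0780), Sall2 (0.0951), Yipf1 (0.0954), Zfp316 (0.0969) and Zfp667 (0.0996), with Psph at place 971 and Psat1 at place 3202. For the low gene Chac1 they were Fndc1 (0.146), Adamts9 (0.162), Phf13 (0.179), Itpr2 (0.182) and Nav3 (0.182).

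Promoter sequences were searched because several members moved together. RefSeq promoter windows of 300 bases (GRCm38.p6, 250 bases before to 50 after the start) were found for all 10 members, 11 windows in all because Psat1 has 2. The searched letters were TGATGNAA, the core of the C/EBP-ATF response element that ATF4 binds with C/EBP partners, on both strands. They occur in 1304 of all 32851 promoter windows (3.97%) and in the windows of 3 members, Asns, Trib3 and Chac1. The cAMP response element TGACGTCA, which reads the same on both strands, occurs in 1.79% of all windows and in 0 of the 11. The matches are shown with 11 bases on each side, in the direction of the gene, with the matched letters in capitals (TGATGNAA for Asns, its reverse complement for Trib3 and Chac1).
Asns, chr6:7693214-7693243, minus strand: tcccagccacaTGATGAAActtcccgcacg
Trib3, chr2:152344028-152344057, minus strand: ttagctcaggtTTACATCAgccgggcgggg
Chac1, chr2:119351038-119351067, plus strand: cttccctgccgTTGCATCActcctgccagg
The windows of Atf4, Ddit3, Phgdh, Psat1, Psph, Shmt2 and Mthfd2 do not hold these letters, which says nothing about sites elsewhere. Among the genes with a window, TGATGNAA is held by 5 of 8 synthetases known as ATF4 targets and by 0 of 5 other synthetases. It is held by 5 of 16 other known ATF4 targets, 2 of 7 transporters and 3 of 7 bZIP factors, and by 0 of 13 genes of the folate cycle. These are shares of genes, whereas the 3.97% is a share of windows, and they were not tested. Known targets may have been recognized partly by this element, so that their lists are not independent of the search.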

How the data were processed

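RNA-seq of 10 cultures had been made with the Ovation RNA-seq System V2. According to the methods and the submitters' processing notes, the authors trimmed reads (Trimmomatic, cutadapt), aligned them with STAR and estimated counts per gene with RSEM on GRCm38 (mm10); versions are not given in the sources used here. The deposited values are these RSEM estimated counts, already whole numbers and not normalized. Of 48795 identifiers, 48435 were matched in GENCODE M21 (GRCm38) and 19955 were at 0 in every library.

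A gene was discarded if it was under 1 CPM in 4 or more of the 10 libraries, which left 12859. Counts were scaled with TMM, fitted as 4 groups with edgeR 4.0.16 (robust quasi-likelihood, R 4.3.3) and tested two-sided, with Benjamini-Hochberg adjustment over all genes and a threshold of 0.05. The steps were tested on simulated counts, in which 12459 of 12859 genes were left unchanged, far more than in the data. Of 100 genes given a log2 change of 1, edgeR called 79 for the stage in WT. For the difference between the stage changes it called 47 of 100, and 78 of 100 at a log2 change of 2. Smaller differences between the genotypes could thus be missed. Alternatives were DESeq2 1.42.0, its size factors in edgeR, other filters, only the groups compared, the replicate number as a block, and each library left out. A further block fit had the p27KO numbers crossed, the replicate numbers of the DIFF libraries labelled p27KO being exchanged. It is among the alternative fits counted. CPM uses library totals without TMM factors. SE and 95% intervals come from the quasi-likelihood F statistic. Counting error matters for Trib3, Chac1 and Ddit3, and for Mthfd2 in DIFF.

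Members and lists were chosen with earlier results of these data known. From each list, up to 4 genes past the threshold in WT whose mean reached 10 CPM are named, taking the largest changes, and any gene past a comparison between genotypes. A gene that met this rule is not reported here. What the replicate numbers mark is not stated. Each library's deviations from its group mean were correlated across genes between PRO and DIFF: equal WT numbers gave r of 0.248, 0.301 and 0.395, unequal ones -0.221 to -0.0874, so that WT libraries of equal number were more alike. The fit reported does not use this pairing, which enters only as the block alternative. Same-numbered p27KO libraries correlated at -0.138. Replicates were not copies, with a chi-square per gene of 12.1 to 52.5.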

Additional observations from a re-analysis of the deposited data

Results flagged for a closer look

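Among the members and the genes of the lists, 1 gene passed the test of the difference between the stage changes of the genotypes. This was Mki67, a marker of dividing cells, whose fall was smaller in the libraries labelled p27KO by 1.65 on the log2 scale (SE 0.268, adjusted p = 0.0392, edgeR quasi-likelihood with Benjamini-Hochberg adjustment). It was called in 7 of 16 alternative fits, with values from 1.45 to 1.81. The cause was not tested.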

How the results depend on the processing

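Groups held 2 or 3 libraries, and the comparisons between genotypes share their libraries with the stage comparisons. Fits without the filter for Trib3 and Chac1, apart from the no-filter fit, were chosen after seeing the data. The block with the p27KO numbers crossed was not planned beforehand either. The number of members UP in WT was 2 when only the groups compared were fitted and 1 to 2 with 1 library left out. In the libraries labelled p27KO it was 0 to 1. With the replicate number as a block, the number of genes called between the genotypes in PRO was 1, and no call of a tested member changed. With the p27KO numbers crossed in the block, 1 gene was called in PRO and 524 in DIFF.

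Genes called for the difference of the stage changes were 157 by DESeq2, 79 without a filter and 0 to 88 with 1 library left out. In PRO they were 40 by DESeq2, 9 when at least 1 CPM in at least 4 libraries was asked, 14 without a filter, 1 with only the groups compared and 1 to 4 with 1 library left out. In DIFF they were 631 by DESeq2, 39 with only the groups compared and 99 to 282 with 1 library left out.

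Log2 fold changes near 0 changed sign. For the stage in the libraries labelled p27KO, Psat1 was -0.0246 when at least 1 CPM in at least 4 libraries was asked and -0.0545 without a filter. With 1 library left out it ran from -0.18 to 0.18, Psph from -0.14 to 0.35 and Ddit3 from -0.13 to 0.0444. The difference of the stage changes of Asns was 0.0080 with DESeq2 size factors, 0.0084 by DESeq2 and 0.0050 without a filter. With 1 library left out, this difference ran from -0.15 to 0.12 for Atf4, -0.14 to 0.19 for Asns, -0.33 to 0.0405 for Phgdh and -0.0603 to 0.29 for Psat1. It ran from -0.44 to 0.0495 for Psph, -0.32 to 0.23 for Shmt2, -0.32 to 0.43 for Chac1 and -1.38 to 0.0005 for Trib3.

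Between the genotypes in PRO, leaving 1 library out gave -0.26 to 0.0120 for Atf4, -0.27 to 0.0005 for Asns, -0.17 to 0.0292 for Phgdh and -0.37 to 0.11 for Psph. It gave -0.42 to 0.13 for Shmt2, -0.18 to 0.0126 for Mthfd2, -0.74 to 0.0198 for Chac1 and -0.80 to 0.59 for Trib3. In DIFF it gave -0.25 to 0.0615 for Asns and -0.15 to 0.20 for Psat1.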
